A study of Homo sapiens with 16 samples.

Results

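The genes of the DLG, SHANK and HOMER families were examined in HMC3 cells, an immortalized human microglial cell line. The members were the 10 rows of the count table named DLG1, DLG2, DLG3, DLG4, SHANK1, SHANK2, SHANK3, HOMER1, HOMER2 and HOMER3, out of 25370 genes, and 10 of 10 passed the filter on low counts that kept 16004 genes for testing. There were 16 RNA-seq libraries, 2 for each of 8 conditions. These were vehicle, estradiol (E2) at 0.1 nM, the drugs ketamine, (2S,6S)-HNK and (2R,6R)-HNK at 400 nM, and the drugs at 400 nM with E2 at 0.1 nM. HNK stands for hydroxynorketamine. The 2 HNKs are mirror-image forms of the same ketamine metabolite, which lacks the N-methyl group of ketamine and carries an added hydroxyl group. All cells were of this line and were exposed for 24 h in medium free of serum and phenol red. The study asked how ketamine and its metabolites alter gene expression in these cells with and without E2, and here the comparisons are with vehicle, between the drugs at the same dose, and between the effect of a drug with and without E2.

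At excitatory synapses these proteins form layers of scaffold under the postsynaptic membrane. The DLG proteins bind the tails of receptors and adhesion proteins through their PDZ domains, the DLGAP proteins link them to SHANK, and HOMER proteins bind SHANK and the IP3 receptors of the endoplasmic reticulum. DLG1 and its relatives also act outside neurons, where DLG1 belongs to a polarity complex with SCRIB and LLGL. The long HOMER proteins carry a coiled coil through which they multimerize, whereas the short product of HOMER1 lacks it, and counts per gene cannot separate these forms.

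The labelled cell type was only partly borne out by its defining markers. Of 9 microglial markers, AIF1, CX3CR1, P2RY12, TMEM119, ITGAM and PTPRC had 7 counts or fewer in every library, while CD68 had 17.4 to 23.4 CPM (counts scaled to a common library size). The summed level of the microglial markers was 18.8 to 22.1 CPM with vehicle and 19.5 to 25 CPM in the treated conditions. Among 10 neuronal markers STMN2 had no counts in any library, 5 stayed under 1 CPM in every library, and TUBB3 had 71.7 to 140 CPM. The neuronal sum, most of it TUBB3, was 110 CPM in both vehicle libraries, 134 with E2, 94.3 to 94.5 with ketamine, 96.6 to 107 with (2S,6S)-HNK and 130 to 132 with (2R,6R)-HNK. With E2 added it was 144 to 145 with ketamine, 77.8 to 82.1 with (2S,6S)-HNK and 88.0 to 92.2 with (2R,6R)-HNK, so it lay above vehicle in 3 conditions and below it in 4. The part of either marker list in the results was not tested. The libraries held 55300614 to 81646165 counts. Even numbers made up 65.8% of counts from 1 to 9 but 49.9% of counts from 500 upwards. Halving all counts, as would be needed if each read pair had been counted per read, ended 2 of 98 calls of members, SHANK1 with E2 and SHANK2 with (2S,6S)-HNK. In RNA from whole cultures, fewer cells of a type and less RNA per cell cannot be told apart. Separate cultures are not stated for the 2 libraries within a condition, so p-values may measure technical spread only.

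Levels were compared between genes per length, as CPM divided by the length of the main transcript in kilobases (RPKM), in the vehicle libraries. HOMER3 had the highest level of the members, 32.9 ± 2.68 RPKM (SD, n = 2), followed by DLG1 with 20.5 ± 0.237 and HOMER2 with 10.1 ± 0.051 RPKM. DLG3 was at 3.77 ± 0.338, DLG4 at 2.73 ± 0.138 and HOMER1 at 2.53 ± 0.084 RPKM. SHANK2 reached 1.49 ± 0.142 and SHANK3 1.16 ± 0.0501 RPKM. SHANK1 and DLG2 were near the lower end of detection, at 0.0587 ± 0.023 and 0.0145 ± 0.00561 RPKM. The DLG and SHANK families thus each had 1 member near the floor, and all HOMER genes were above it. When all annotated exons were used as the length, HOMER2 fell from the third to the sixth rank with 1.34 RPKM, because its annotated exons are much longer than its main transcript.

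The DLG genes encode membrane-associated guanylate kinases. DLG1 (SAP97, ENSG00000075711) lies on the minus strand of chromosome 3 at 196769431 to 197026201 of GRCh37, and DLG4 (PSD-95, ENSG00000132535), the most abundant scaffold of the excitatory postsynapse in brain, on the minus strand of chromosome 17 at 7090506 to 7123160. DLG2 (PSD-93) is on chromosome 11 at 83166055 to 85339379, minus strand, and DLG3 (SAP102) on chromosome X at 69664685 to 69725340, plus strand. The SHANK genes encode the scaffolds of the layer below. SHANK1 lies on chromosome 19 at 51162512 to 51223059 and SHANK2 on chromosome 11 at 70313959 to 70963623, both on the minus strand, and SHANK3 on chromosome 22 at 51112843 to 51171640 on the plus strand. The HOMER genes are all on the minus strand, HOMER1 on chromosome 5 at 78668459 to 78809957, HOMER2 on chromosome 15 at 83505698 to 83654905 and HOMER3 on chromosome 19 at 19040010 to 19052070. Counts covered the exons of each gene as a whole. Whether the counting used strand is not given in the sources used here, so reads of overlapping antisense genes cannot be told apart from those of a member. In members other than HOMER3 such overlaps covered at most 2.9% of the exon length (DLG1), and in HOMER3 the antisense gene HOMER3-AS1 covers 10.9%, and ENSG00000268193, annotated on the same strand, covers 12.3%.

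The DNA upstream of 4 members is shown because DLG1 and HOMER1 moved together and in the opposite direction to DLG4. These genes also differ widely in base composition. The GC correction below uses the GC content of the exons, not of this region. For HOMER1 the GC content is 80.0% in this region and 39.6% in the exons. The sequences are the 250 bases before the outermost RefSeq transcription start (GRCh38.p14), written 5′ to 3′ on the minus strand of each gene. The region of DLG1 is chr3:197299322-197299571, of DLG4 chr17:7220051-7220300, of HOMER1 chr5:79514135-79514384 and of HOMER3 chr19:18941218-18941467. Capitals mark the GC box GGGCGG, the core that SP1 binds, on either strand, with overlapping matches joined.
DLG1: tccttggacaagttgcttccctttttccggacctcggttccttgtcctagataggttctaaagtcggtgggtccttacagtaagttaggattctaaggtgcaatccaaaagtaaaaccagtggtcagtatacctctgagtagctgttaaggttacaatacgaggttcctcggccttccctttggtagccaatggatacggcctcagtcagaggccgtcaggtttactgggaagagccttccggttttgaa
DLG4: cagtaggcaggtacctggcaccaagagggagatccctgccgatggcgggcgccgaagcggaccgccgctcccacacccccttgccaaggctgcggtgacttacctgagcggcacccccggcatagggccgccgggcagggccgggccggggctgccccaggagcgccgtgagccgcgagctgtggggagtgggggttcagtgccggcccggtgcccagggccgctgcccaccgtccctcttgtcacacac
HOMER1: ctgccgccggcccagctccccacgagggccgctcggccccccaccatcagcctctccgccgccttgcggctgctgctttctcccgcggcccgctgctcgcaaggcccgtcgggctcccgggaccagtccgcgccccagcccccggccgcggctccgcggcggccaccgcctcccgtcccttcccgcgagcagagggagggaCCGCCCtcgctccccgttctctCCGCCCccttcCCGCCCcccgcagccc
HOMER3: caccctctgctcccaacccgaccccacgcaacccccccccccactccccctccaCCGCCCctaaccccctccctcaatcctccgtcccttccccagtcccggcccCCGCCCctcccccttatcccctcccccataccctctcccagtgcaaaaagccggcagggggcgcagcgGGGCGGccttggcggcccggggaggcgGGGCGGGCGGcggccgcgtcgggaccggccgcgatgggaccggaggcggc

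The DLG1 region had a GC content of 48.0% and no GC box, the DLG4 region 73.6% and none, the HOMER1 region 80.0% and 3 GC boxes, and the HOMER3 region 77.2% and 5. DLG1 and HOMER1 thus differed in this region although both fell, as described below. The set of start windows used here covered 8 of 10 members, with 29 windows of 300 bases in all. It held no entry for SHANK1 and SHANK2. GGGCGG was present on either strand in 13 of the 29 windows (44.8%), against 45.0% of all 35116 windows. TTCNNNGAA, a spacing that STAT dimers recognize, was in 0 of the 29 windows and in 7.66% of all windows. A gene with several starts is counted once per start, so the 29 windows are not independent. DLG2 had 9 of them, DLG1 and DLG4 5 each and HOMER3 4. These matches describe letters in the window only, and the difference in shares was not tested. The outermost start of DLG4 lies within ACADVL, which is transcribed from the other strand.

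DLG1 mRNA was lower in every treated library than in either vehicle library. It stood at 100.4 and 98.8 CPM with vehicle, 63.6 and 61.0 with E2, 66.8 and 64.7 with ketamine, 50.7 and 50.6 with (2R,6R)-HNK, and 52.7 and 50.4 with (2S,6S)-HNK. With E2 added, DLG1 was at 46.4 and 45.0 CPM with ketamine, 48.5 and 49.8 with (2R,6R)-HNK, and 65.0 and 65.2 with (2S,6S)-HNK. The order of conditions was therefore vehicle, then ketamine and E2+(2S,6S)-HNK with overlapping libraries, E2, the 2 HNKs alone with overlapping libraries, E2+(2R,6R)-HNK, and E2+ketamine at the lowest level. On the log2 scale DLG1 fell by 0.68 (SE 0.039) with E2, by 0.60 (SE 0.038) with ketamine, by 0.98 (SE 0.039) with (2R,6R)-HNK and by 0.95 (SE 0.04) with (2S,6S)-HNK, and by 1.12 (SE 0.04) with E2+ketamine, 1.02 (SE 0.039) with E2+(2R,6R)-HNK and 0.61 (SE 0.038) with E2+(2S,6S)-HNK. The adjusted p of edgeR's quasi-likelihood test was between 1.21e-29 and 3.8e-19 in the 7 comparisons. The fall in E2+ketamine was 2.18-fold. All 7 falls of DLG1 were smaller, 0.30 to 0.62 (0.52 with E2+ketamine), but still called after the GC correction described below. Each of these calls stood with any library left out, with the highest adjusted p, 3.91e-14, for ketamine. The same 2 vehicle libraries enter all 7 comparisons, which are therefore not independent of each other.

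DLG4 mRNA was higher in every treated library than in either vehicle library. It was at 16.3 and 17.5 CPM with vehicle, 20.5 and 23.2 with E2, 26.6 and 26.8 with ketamine, 22.2 and 22.6 with (2R,6R)-HNK, and 32.5 and 38.4 with (2S,6S)-HNK. In the presence of E2 it was at 26.0 and 27.1 CPM with ketamine, 41.7 and 38.2 with (2R,6R)-HNK, and 29.8 and 30.9 with (2S,6S)-HNK. The highest 2 conditions, E2+(2R,6R)-HNK and (2S,6S)-HNK, overlapped, as did ketamine with E2+ketamine and (2R,6R)-HNK with E2. DLG4 rose in 7 of 7 comparisons, with log2 fold changes of 0.37 (SE 0.069) with E2, 0.66 (SE 0.066) with ketamine, 0.41 (SE 0.068) with (2R,6R)-HNK, 1.07 (SE 0.066) with (2S,6S)-HNK, 0.65 (SE 0.068) with E2+ketamine, 1.24 (SE 0.065) with E2+(2R,6R)-HNK and 0.84 (SE 0.066) with E2+(2S,6S)-HNK. Adjusted p ranged from 7.34e-23 to 6.29e-06 (edgeR). The rise was 2.37-fold in E2+(2R,6R)-HNK and 2.1-fold in (2S,6S)-HNK. The 7 calls stood with any library left out, and the highest adjusted p was then 0.00317, with E2. The calls with E2 and (2R,6R)-HNK were lost after the GC correction described below.

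DLG3, which encodes SAP102, a scaffold prominent in developing neurons, ranged from 19.9 to 27.4 CPM over the 16 libraries, and its vehicle libraries, 21.3 and 24.2 CPM, lay inside the range of the treated ones. It rose with ketamine (log2 fold change 0.21, SE 0.063, adjusted p = 0.00304 by edgeR) and with E2+(2S,6S)-HNK (0.16, SE 0.064, adjusted p = 0.0316) and fell by 0.17 (SE 0.066, adjusted p = 0.0169) with E2+ketamine. Each of these calls was lost when a single library was left out. Without vehicle replicate 1 the rises were 0.12 (adjusted p = 0.169) and 0.07 (adjusted p = 0.487), and without vehicle replicate 2 the value in E2+ketamine was -0.08 (adjusted p = 0.369). Without ketamine replicate 1, E2+(2S,6S)-HNK replicate 1 or E2+ketamine replicate 2 the adjusted p of DLG3 was 0.0946, 0.409 and 0.0887. DLG3 was, after the GC correction described below, instead called lower in 5 of 7 comparisons. DLG2 had 5 to 19 counts per library, or 0.0839 to 0.265 CPM. No comparison called DLG2, and with standard errors of 0.658 to 0.735 on the log2 scale no difference was detectable at this depth.

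SHANK3, the scaffold whose haploinsufficiency underlies Phelan-McDermid syndrome, was lower in both vehicle libraries than in all treated libraries. It had 8.6 and 8.09 CPM with vehicle, 11.6 and 12.4 with E2, 12.1 and 11.3 with ketamine, 11.4 and 12.2 with (2S,6S)-HNK, 12 and 11.0 with (2R,6R)-HNK, 13.8 and 13.5 with E2+ketamine, 14.4 and 13.8 with E2+(2R,6R)-HNK, and 10.9 and 10.6 with E2+(2S,6S)-HNK. The 4 treatments given singly overlapped each other. SHANK3 rose in 7 of 7 comparisons by 0.37 to 0.76 on the log2 scale (SE 0.081 to 0.084), with adjusted p of 7.1e-12 to 0.000132 by edgeR, and the calls stood with any library left out, but 4 of them were lost after the GC correction described below. E2+(2R,6R)-HNK was the highest condition and E2+ketamine the next.

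SHANK1 is a low-count gene here. Its vehicle libraries held 25 and 43 counts, 0.409 and 0.722 CPM, and the 14 treated libraries 50 to 107 counts, 0.843 to 1.47 CPM. SHANK1 rose in 7 of 7 comparisons, by 0.68 (SE 0.306, adjusted p = 0.0482) with E2 to 1.35 (SE 0.284, adjusted p = 3.7e-05) with E2+(2R,6R)-HNK in edgeR's test. With DESeq2 on the groups compared the calls of SHANK1 with E2, ketamine, E2+ketamine and E2+(2S,6S)-HNK were lost, with adjusted p of 0.211, 0.127, 0.123 and 0.0754. Most of the edgeR calls depend on the vehicle library with 25 counts. Without vehicle replicate 1 the log2 fold changes of SHANK1 were 0.33 with E2, 0.41 with ketamine, 0.70 with (2R,6R)-HNK, 0.47 with E2+ketamine and 0.52 with E2+(2S,6S)-HNK, with adjusted p of 0.462, 0.335, 0.0745, 0.242 and 0.207. Leaving out a treated library also ended the call of SHANK1 with E2 (adjusted p = 0.0923 and 0.141), ketamine (0.175 without replicate 1), (2R,6R)-HNK (0.0878 without replicate 1), E2+ketamine (0.168 without replicate 2) and E2+(2S,6S)-HNK (0.0616 without replicate 1). The calls in (2S,6S)-HNK and E2+(2R,6R)-HNK stood with each library left out, with adjusted p up to 0.033 and 0.00828, but after the GC correction described below that in E2+(2R,6R)-HNK was the only SHANK1 call left, with 0.60 (adjusted p = 0.0757) in (2S,6S)-HNK.

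SHANK2 differed from the other SHANK genes in its order of conditions. It had 17.0 and 14.8 CPM with vehicle, 20.3 and 21.5 with E2, and 20.7 and 21.8 with ketamine, and the latter 2 conditions overlapped each other. (2R,6R)-HNK gave 17.9 and 19.7 CPM, (2S,6S)-HNK 18.1 and 17.3, E2+ketamine 16.2 and 16.4, E2+(2R,6R)-HNK 17.6 and 19.3, and E2+(2S,6S)-HNK 17.8 in both libraries. SHANK2 rose with E2 (log2 fold change 0.39, SE 0.07, adjusted p = 2.79e-06 by edgeR) and with ketamine (0.42, SE 0.068, adjusted p = 5.92e-07), but with both together the value was 0.03 (SE 0.072, adjusted p = 0.683). The rises with the HNKs were smaller, 0.24 (adjusted p = 0.00227) with (2R,6R)-HNK, 0.16 (0.0493) with (2S,6S)-HNK, 0.21 (0.00598) with E2+(2R,6R)-HNK and 0.17 (0.0381) with E2+(2S,6S)-HNK. Without vehicle replicate 2 they were 0.06 to 0.15 with adjusted p of 0.13 to 0.554. Leaving out either (2S,6S)-HNK library, either E2+(2S,6S)-HNK library, (2R,6R)-HNK replicate 2 or E2+(2R,6R)-HNK replicate 2 also ended the respective call of SHANK2, with adjusted p of 0.0608 to 0.223. The calls with E2 and with ketamine stood. The HNK rises were also lost after the GC correction described below, with -0.10 in (2S,6S)-HNK (adjusted p = 0.229) and in E2+(2R,6R)-HNK (adjusted p = 0.224).

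HOMER1 mRNA was higher in both vehicle libraries than in all treated libraries. It stood at 15.0 and 14.3 CPM with vehicle, 9.37 and 10.0 with E2, 9.40 and 9.25 with ketamine, 9.96 and 8.17 with (2R,6R)-HNK, and 9.03 and 8.67 with (2S,6S)-HNK. In the presence of E2 it was at 7.26 and 7.20 CPM with ketamine, 9.62 and 9.70 with (2R,6R)-HNK, and 10.6 and 11.8 with (2S,6S)-HNK. E2+ketamine was below and E2+(2S,6S)-HNK above all other treated libraries. The conditions between them overlapped in part. HOMER1 fell by 0.39 (SE 0.084) in E2+(2S,6S)-HNK to 1.02 (SE 0.09) in E2+ketamine on the log2 scale, with adjusted p of 6.81e-05 and 1.46e-14 (edgeR), and by 0.60 to 0.73 in the other 5 comparisons. All 7 calls of HOMER1 stood with any library left out, with adjusted p up to 0.00898 in E2+(2S,6S)-HNK, but 4 of them were lost after the GC correction described below.

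HOMER3, the most abundant member per length and a long-form HOMER with a coiled coil, had 54.2 and 48.3 CPM with vehicle, 64.5 and 65.2 with E2, 52.9 and 54.9 with ketamine, 61.6 and 62.7 with (2S,6S)-HNK, 67.6 and 67.0 with (2R,6R)-HNK, 75.4 and 81.0 with E2+ketamine, 56.1 and 57.2 with E2+(2R,6R)-HNK, and 51.6 and 53.3 with E2+(2S,6S)-HNK. E2+ketamine was the highest condition, and ketamine and E2+(2S,6S)-HNK overlapped with vehicle. HOMER3 rose by 0.34 (SE 0.045) with E2, 0.39 (SE 0.044) with (2R,6R)-HNK, 0.28 (SE 0.045) with (2S,6S)-HNK, 0.61 (SE 0.044) with E2+ketamine and 0.14 (SE 0.044) with E2+(2R,6R)-HNK, and each of these directions reversed after the GC correction below. The adjusted p was 3.52e-09, 3.92e-11, 3.25e-07, 1.35e-17 and 0.00361 (edgeR). Ketamine gave 0.07 (SE 0.044, adjusted p = 0.163) and E2+(2S,6S)-HNK 0.03 (SE 0.045, adjusted p = 0.561). Without vehicle replicate 2 the value in E2+(2R,6R)-HNK was 0.06 (adjusted p = 0.299), and without vehicle replicate 1 that in ketamine was 0.16 (adjusted p = 0.00869).

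HOMER2 ranged from 17.1 to 23.6 CPM, with 19.7 and 19.8 CPM in the vehicle libraries. It fell by 0.21 (SE 0.072, adjusted p = 0.011 by edgeR) with ketamine, where both libraries had 17.1 CPM, but without vehicle replicate 2 or ketamine replicate 1 the adjusted p was 0.0504 and 0.0536. The other 6 log2 fold changes lay between -0.11 and 0.11 and did not pass. With E2 its libraries were apart, 23.6 and 19.1 CPM, and without E2 replicate 2 the value was 0.26 (adjusted p = 0.00436). The GC correction described below ended the call of HOMER2 with ketamine (-0.07, adjusted p = 0.431), and HOMER2 was then called higher in 5 of the other 6 comparisons (0.22 to 0.36).

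**Figure D1:**
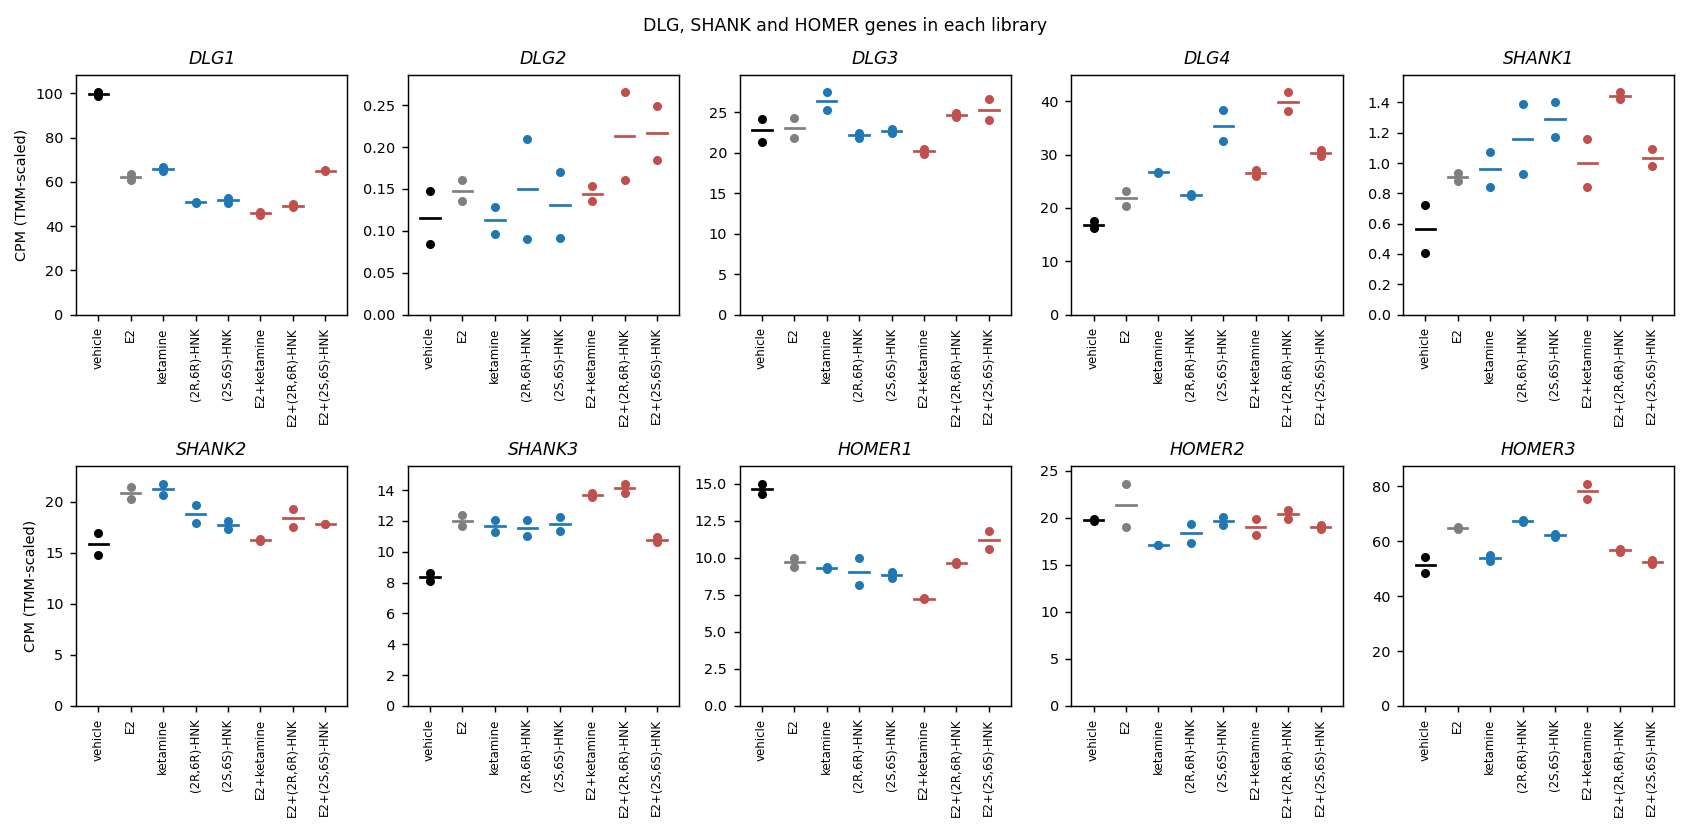
Level of each of the 10 genes in CPM (vertical axes, TMM-scaled, starting at 0) for the 8 conditions, with a point per library and a line at the mean of 2 libraries (black vehicle, grey E2, blue drug alone, red drug with E2). Both vehicle points lie above all treated points for DLG1 and HOMER1 and below them for DLG4, SHANK1 and SHANK3.

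Counted per comparison, 7 of the 10 members were called with E2, where 62.5% of all tested genes were called. Of these, 5 were higher and 2 lower, against 29.9% and 32.7% of all genes. With ketamine 8 were called (59.3% of all genes), 5 higher (26.8%) and 3 lower (32.5%), and 5 were called without ketamine replicate 1. With (2R,6R)-HNK 7 were called (66.6%), 5 higher (31.7%) and 2 lower (34.9%). With (2S,6S)-HNK 7 were called (67.9%), 5 higher (32.1%) and 2 lower (35.8%). The shares of members called were near those of all genes. With E2+ketamine 7 were called (71.7%), 4 higher (34.3%) and 3 lower (37.4%). With E2+(2R,6R)-HNK 7 were called (69.7%), 5 higher (33.4%) and 2 lower (36.3%). With E2+(2S,6S)-HNK 7 were called (59.7%), 5 higher (24%) and 2 lower (35.7%), and 4 were called without replicate 1 of that condition. DLG1, DLG4, SHANK1, SHANK3 and HOMER1 were called in all 7 comparisons, which share the vehicle libraries. The share of all genes called in all 7 is not given here, so this is no trait particular to these members. Shares of all genes are also not given for fits with a library left out. Fewer calls of members in those fits cannot be told from fewer calls of all genes. The median log2 fold change of the members was 0.14 to 0.34, and that of all tested genes -0.06 to 0.00. After the GC correction described below these medians were -0.01 to 0.12 and -0.05 to -0.01.

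When calls were limited to a log2 change of 1 or more in size, no member was left with E2, ketamine or E2+(2S,6S)-HNK, against 1.81%, 3.56% and 5.85% of all genes. By edgeR without that limit these were the 7, 8 and 7 calls above. (2R,6R)-HNK called SHANK1 alone (3.75% of all genes), (2S,6S)-HNK called DLG4 and SHANK1 (9.08%), E2+ketamine called DLG1 and HOMER1 (11.0%), and E2+(2R,6R)-HNK called DLG1, DLG4 and SHANK1 (11.5%). No member had a called change of this size in any of the 7 comparisons after the GC correction described below, where 3 to 8 were called by edgeR without that limit. The share of all genes with such a change after the correction is not given here. A loss among members therefore cannot be told from a loss among all genes. The 2 vehicle libraries did not overlap with the 14 treated libraries for 5 members. These were DLG1 and HOMER1, with vehicle highest, and DLG4, SHANK1 and SHANK3, with vehicle lowest. Among all tested genes 43.8% showed no such overlap, 26.0% with vehicle highest and 17.8% with vehicle lowest. An exact permutation test of 2 against 2 libraries cannot give a two-sided p below 0.333.

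**Figure D2:**
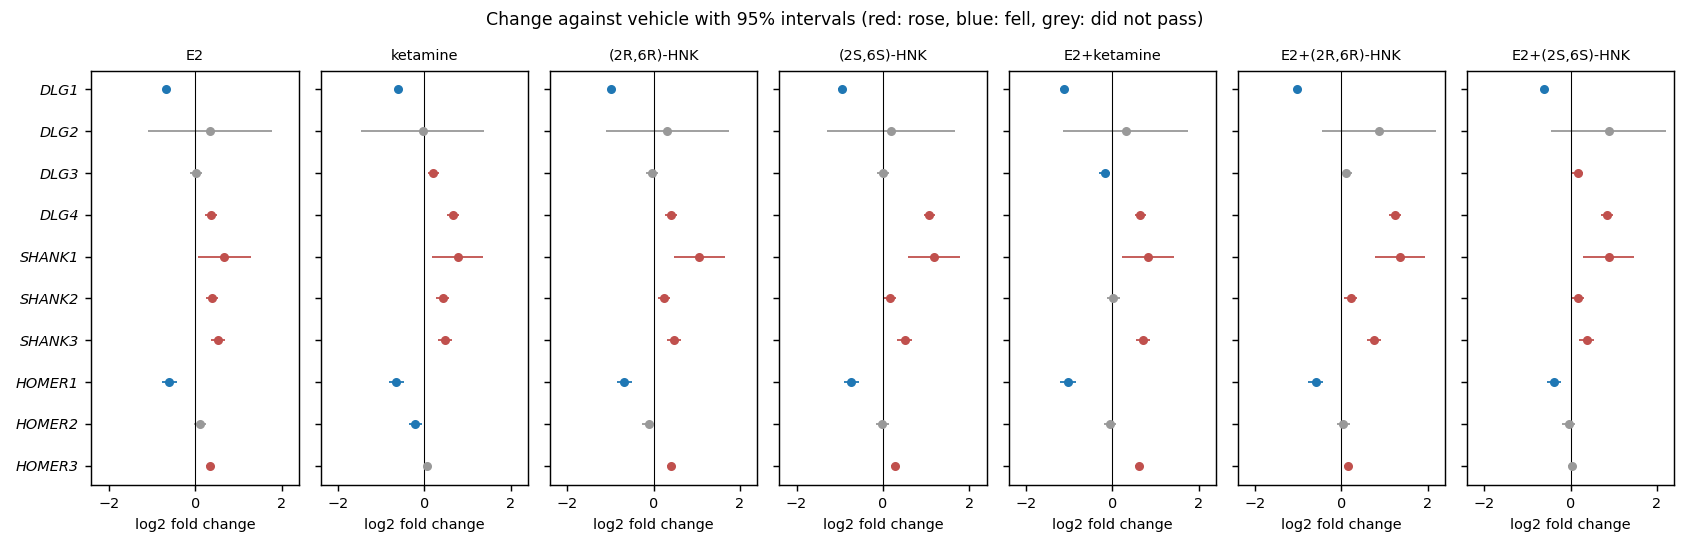
Log2 fold change against vehicle (horizontal axes) with 95% intervals from edgeR for the 10 genes in the 7 treatments, each from 2 treated and 2 vehicle libraries; red rose, blue fell and grey did not pass an adjusted p of 0.05. DLG1 and HOMER1 are on the left and DLG4, SHANK1 and SHANK3 on the right in all panels; after GC and length correction the rises of HOMER3 reversed, those of SHANK2 with the HNKs were lost, and of DLG1, HOMER1, DLG4, SHANK1 and SHANK3 only DLG1 kept all 7 calls.

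The balance between members can be read within a library, where sequencing depth cancels. The ratio of DLG4 to DLG1 counts was 0.162 and 0.177 in the vehicle libraries and 0.322 to 0.859 in the 14 treated libraries. Its mean was 0.17 ± 0.0105 (SD, n = 2) with vehicle, 0.351 ± 0.0415 with E2, 0.406 ± 0.0114 with ketamine, 0.689 ± 0.102 with (2S,6S)-HNK and 0.443 ± 0.0066 with (2R,6R)-HNK. With E2 added it was 0.581 ± 0.0289 with ketamine, 0.466 ± 0.0118 with (2S,6S)-HNK and 0.814 ± 0.0644 with (2R,6R)-HNK. No treated library had a ratio as low as the vehicle libraries. The HOMER3 to HOMER1 ratio was 3.61 and 3.37 with vehicle, 4.51 to 8.2 in the treated libraries other than E2+ketamine, and 10.4 and 11.3 with E2+ketamine. Both ratios set a GC-rich gene against a GC-poor one. As the difference of the fitted log2 fold changes of the pair, the DLG4 to DLG1 ratio was 1.05 to 2.26 above vehicle on the log2 scale in the 7 treatments, and 0.36 to 1.44 above it after the correction for GC content described next. The HOMER3 to HOMER1 ratio was 0.43 to 1.63 above vehicle, and after the correction its change was -0.33 to 0.04 in 6 treatments and 0.26 with E2+ketamine, so the rise of this ratio did not remain outside E2+ketamine. These corrected differences were not tested.

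**Figure D3:**
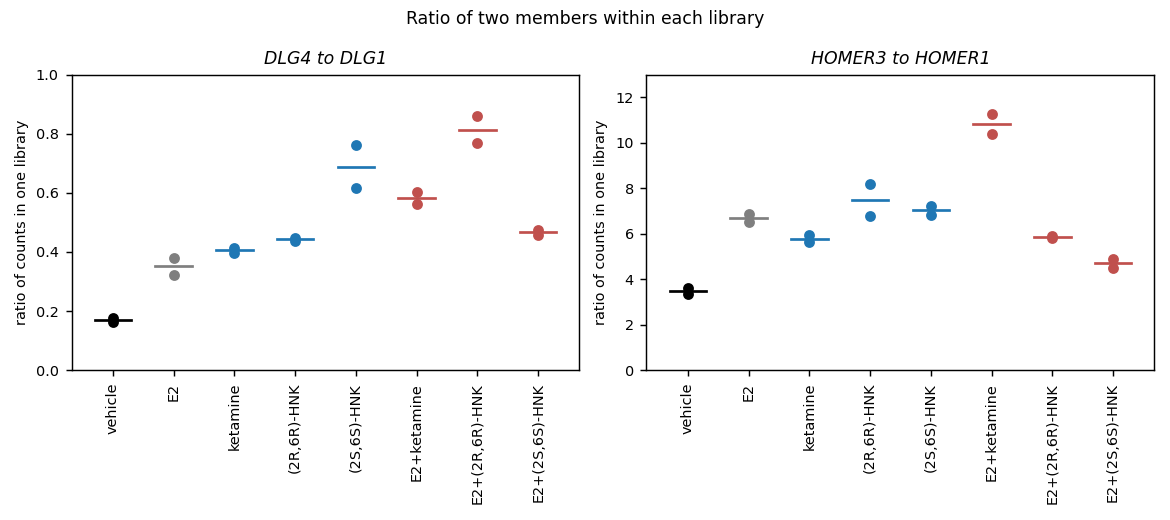
Ratio of the counts of DLG4 to DLG1 and of HOMER3 to HOMER1 within each library (vertical axes, starting at 0) for the 8 conditions, with a point per library and a line at the mean of 2 libraries. The vehicle libraries are lowest in both panels; E2+(2R,6R)-HNK has the highest mean DLG4 to DLG1 ratio (0.814) and E2+ketamine the highest HOMER3 to HOMER1 ratio (10.8). The counts are not corrected for GC content, and under that correction the HOMER3 to HOMER1 ratio changed by -0.33 to 0.04 (log2) in the treatments other than E2+ketamine.

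The members called higher in most comparisons had GC-rich exons and those called lower in all comparisons GC-poor ones. DLG2, with GC-poor exons, was an exception, with a mean log2 fold change of 0.41 and no call. The GC content of the exons was 65.5% for SHANK1, 62.7% for HOMER3, 56.8% for SHANK3, 56.6% for DLG4, 53.7% for DLG3, 53.3% for SHANK2, 44.5% for HOMER2, 41.6% for DLG1, 40.6% for DLG2 and 39.6% for HOMER1, where the median over all tested genes was 48.7%. Spearman's rho between exon GC content and the mean log2 fold change over the 7 treatments was 0.709 over the 10 members and 0.733 over the 15349 tested genes with a value. Both are descriptions across genes that share libraries. Each library was then corrected for the trend of its counts with GC content and length, which takes out any change that follows GC content, whether of the cells or of the libraries.

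After this correction DLG1 still fell in 7 of 7 comparisons, by 0.30 with E2 to 0.62 with E2+(2R,6R)-HNK on the log2 scale. DLG4 rose in 5, with 0.82 (SE 0.06) in E2+(2R,6R)-HNK, 0.70 (SE 0.062) in (2S,6S)-HNK, 0.66 (SE 0.062) in E2+(2S,6S)-HNK, 0.37 in ketamine and 0.21 in E2+ketamine, while E2 gave 0.06 (adjusted p = 0.505) and (2R,6R)-HNK 0.09 (adjusted p = 0.25). SHANK3 rose in 3 comparisons (0.21 with E2, 0.26 with E2+ketamine, 0.31 with E2+(2R,6R)-HNK) and did not pass in the other 4, with 0.18 with ketamine (adjusted p = 0.0565) and 0.18 with E2+(2S,6S)-HNK (adjusted p = 0.062). SHANK1 rose in 1, E2+(2R,6R)-HNK (0.70, adjusted p = 0.0308). HOMER1 fell by 0.29 with ketamine, 0.24 with (2S,6S)-HNK and 0.36 with E2+ketamine and had values of -0.15 to -0.08 in the other 4. HOMER3 fell in 7 of 7 comparisons after correction, by 0.10 to 0.42, the opposite of its uncorrected direction. DLG3 fell in 5 comparisons by 0.19 to 0.48, and HOMER2 rose in 5 by 0.22 to 0.36. SHANK2 rose with E2 (0.19) and ketamine (0.20) and fell by 0.22 with E2+ketamine. The members called after correction numbered 6 with E2 (38.1% of all genes), 5 with ketamine (48.5%), 4 with (2R,6R)-HNK (45.7%), 6 with (2S,6S)-HNK (56.9%), 8 with E2+ketamine (52.5%), 7 with E2+(2R,6R)-HNK (59.5%) and 3 with E2+(2S,6S)-HNK (56.4%). Of these, 3 were higher and 3 lower with E2, 2 and 3 with ketamine, 1 and 3 with (2R,6R)-HNK, and 2 and 4 with (2S,6S)-HNK. With E2 added they were 3 and 5 with ketamine, 4 and 3 with (2R,6R)-HNK, and 1 and 2 with (2S,6S)-HNK. Among all genes 15.6% to 25.9% were higher and 22.4% to 34% lower. On the corrected scale the vehicle libraries did not overlap with the treated ones for 3 members, DLG1, SHANK3 and HOMER3, against 26.9% of all genes.

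**Figure D4:**
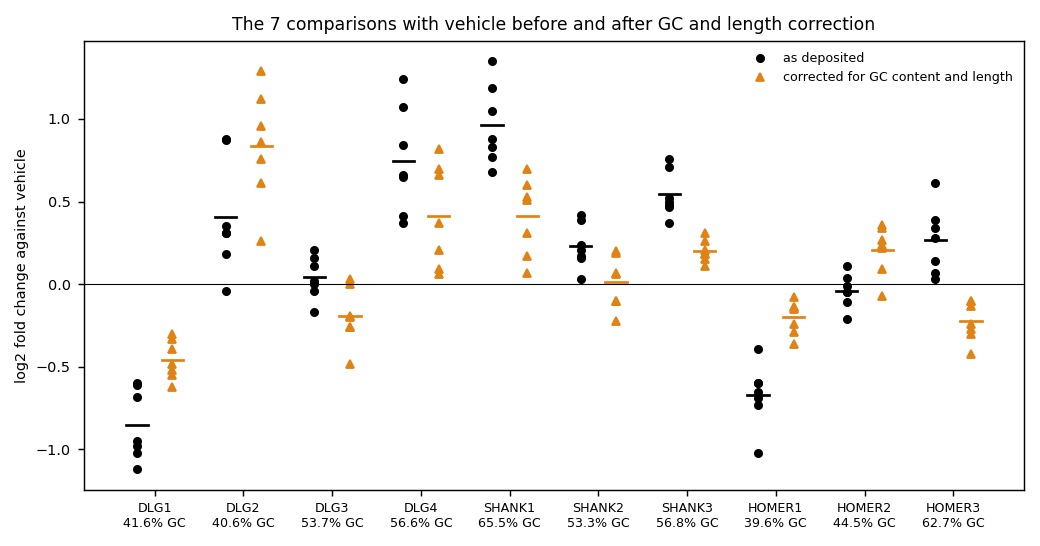
Log2 fold change against vehicle (vertical axis) of the 10 genes in the 7 treatments as deposited (black circles) and after correction for GC content and length (orange triangles), with a line at the mean of the 7 and the GC content of the exons under each name. DLG1 stays below 0 and DLG4 above 0 on both scales, while all 7 HOMER3 values lie below 0 after correction.

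Ketamine and the 2 HNKs were next compared at the same dose, 400 nM and 24 h, in 6 pairs, 3 without and 3 with E2. The HNKs differ from each other in the configuration of the ring, and from ketamine by loss of the N-methyl group and an added hydroxyl group. Between the 2 HNKs without E2, 2 members were called, against 43.5% of all genes. DLG4 was lower with (2R,6R)-HNK than with (2S,6S)-HNK by a log2 difference of -0.66 (SE 0.064, 95% interval -0.79 to -0.53, adjusted p = 2.06e-12 by edgeR), and after the GC correction by -0.61 (SE 0.059). HOMER3 was higher by 0.11 (SE 0.044, adjusted p = 0.029), a call that leaving out any library of the pair ended. SHANK2 was called only after the GC correction (0.17, adjusted p = 0.0392). For DLG1 the difference was -0.03 (95% interval -0.11 to 0.06), for HOMER1 0.04 (-0.14 to 0.23), for SHANK3 -0.03 (-0.19 to 0.13), and for SHANK1 -0.13 (-0.66 to 0.40). The interval of DLG1 was the narrowest and that of SHANK1 the widest of these 4.

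In the presence of E2 the order of DLG4 between the HNKs turned. DLG4 was higher with E2+(2R,6R)-HNK than with E2+(2S,6S)-HNK by 0.40 (SE 0.06, adjusted p = 1.34e-07 by edgeR), or 0.16 (adjusted p = 0.0176) after the GC correction. In this pair 5 members were called, against 54.0% of all genes. DLG1 was lower with E2+(2R,6R)-HNK by -0.41 (SE 0.04, adjusted p = 1.87e-12), HOMER1 by -0.21 (SE 0.086, adjusted p = 0.0349), and SHANK3 was higher by 0.39 (SE 0.077, adjusted p = 2.14e-05). HOMER3 was higher by 0.11 (SE 0.044, adjusted p = 0.0265), which reversed to -0.14 (adjusted p = 0.00344) after the GC correction, and HOMER1 was then at 0.05 (adjusted p = 0.71). The calls of HOMER1 and HOMER3 were also lost when single libraries were left out, with adjusted p up to 0.322 and 0.173. Of these members only DLG1 and DLG4 remained called in the same direction after the correction. DLG3 (-0.22, adjusted p = 0.00308) and HOMER2 (0.18, adjusted p = 0.0365) were called only after it.

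Between ketamine and (2R,6R)-HNK 5 members were called, against 45.4% of all genes, and between ketamine and (2S,6S)-HNK 6, against 46.1%. DLG1 was higher with ketamine than with either HNK, by 0.38 (SE 0.039, adjusted p = 2e-11) and 0.35 (SE 0.04, adjusted p = 2.16e-10). DLG4 was higher with ketamine than with (2R,6R)-HNK by 0.25 (SE 0.063, adjusted p = 0.000833) and lower than with (2S,6S)-HNK by -0.41 (SE 0.061, adjusted p = 1.77e-07). HOMER3 was lower with ketamine by -0.32 and -0.21, and DLG3 higher by 0.25 and 0.22. SHANK2 was higher with ketamine by 0.18 (adjusted p = 0.0253) and 0.26 (adjusted p = 0.00124). For HOMER1 the differences were 0.03 (95% interval -0.14 to 0.21) and 0.08 (-0.10 to 0.26), and for SHANK3 0.01 (-0.14 to 0.17) and -0.02 (-0.18 to 0.14), and neither gene was called. HOMER2 was lower with ketamine than with (2S,6S)-HNK by -0.20 (adjusted p = 0.0206), a call lost without either ketamine library or (2S,6S)-HNK replicate 2. The DLG3 difference from (2S,6S)-HNK (adjusted p = 0.104 without ketamine replicate 1) and the SHANK2 difference from (2R,6R)-HNK (0.196 without ketamine replicate 2, 0.354 without (2R,6R)-HNK replicate 1) also rested on single libraries, and all p-values are edgeR's. On the GC-corrected scale DLG1 was higher with ketamine by 0.15 and 0.22, DLG3 by 0.26 in both pairs, and DLG4 differed by 0.28 and -0.33, all called. The HOMER3 difference from (2S,6S)-HNK was then -0.06 (adjusted p = 0.26) and the SHANK2 difference from (2R,6R)-HNK 0.14 (adjusted p = 0.0942), so these calls were lost, while HOMER3 against (2R,6R)-HNK was -0.16 and SHANK2 against (2S,6S)-HNK 0.30. HOMER2 was lower with ketamine in both pairs on this scale, by -0.29 and -0.31 (adjusted p = 0.000392 and 0.000146).

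With E2 present, 6 members were called between ketamine and (2R,6R)-HNK, against 52.0% of all genes, and 6 between ketamine and (2S,6S)-HNK, against 66.8%. HOMER1 was lower with E2+ketamine than with E2+(2R,6R)-HNK by -0.42 (SE 0.092, adjusted p = 0.000132) and than with E2+(2S,6S)-HNK by -0.63 (SE 0.091, adjusted p = 3.23e-08). HOMER3 was higher with E2+ketamine by 0.46 (SE 0.043, adjusted p = 3.28e-13) and 0.58 (SE 0.043, adjusted p = 9.21e-17), and these differences were 0.32 and 0.17 after the GC correction. DLG4 was lower with E2+ketamine by -0.59 and -0.19. DLG1 was lower by -0.51 against E2+(2S,6S)-HNK, and by -0.10 against E2+(2R,6R)-HNK, a difference that reversed to 0.10 after the GC correction. DLG3 was lower by -0.29 and -0.33, SHANK2 by -0.18 against E2+(2R,6R)-HNK (adjusted p = 0.0281), and SHANK3 was higher by 0.34 against E2+(2S,6S)-HNK. Of these, the calls of SHANK2, of DLG1 against E2+(2R,6R)-HNK and of DLG4 against E2+(2S,6S)-HNK were lost when single libraries were left out, with adjusted p up to 0.315 for SHANK2, 0.193 for DLG1 and 0.0666 for DLG4. With the GC correction the SHANK3 difference from E2+(2S,6S)-HNK was 0.08 (adjusted p = 0.376) and the SHANK2 difference from E2+(2R,6R)-HNK -0.13 (adjusted p = 0.118), so both calls were lost. HOMER1 was then lower by -0.28 and -0.23, DLG1 by -0.14 against E2+(2S,6S)-HNK, DLG4 by -0.61 and -0.45, and DLG3 by -0.29 and -0.51. Called only after the correction were SHANK2 (-0.28, adjusted p = 0.000347 by edgeR) and HOMER2 (0.27, adjusted p = 0.000594) against E2+(2S,6S)-HNK. The same held for SHANK1 against E2+(2R,6R)-HNK (-0.63, adjusted p = 0.0393).

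The effect of each drug was then compared with and without E2, as the difference between its effect against E2 alone and its effect against vehicle. With (2S,6S)-HNK this interaction was called for 7 of the 10 members, against 65.1% of all genes. (2S,6S)-HNK lowered DLG1 by 0.95 without E2, and with E2 the value was 0.06 (SE 0.039, adjusted p = 0.186), an interaction of 1.01 (SE 0.056, adjusted p = 1.54e-21 by edgeR). HOMER1 fell by 0.73 without E2 and rose by 0.21 with it, an interaction of 0.94 (SE 0.125, adjusted p = 3.89e-09). In the other direction, the value for DLG4 was 1.07 without and 0.47 with E2 (interaction -0.60, SE 0.092), for SHANK3 0.50 and -0.16 (interaction -0.66, SE 0.115), and for HOMER3, on the uncorrected scale, 0.28 and -0.31 (interaction -0.58, SE 0.063). After the GC correction only the interaction of DLG1 among these 5 was called, at 0.46 (SE 0.052, adjusted p = 1.04e-11), and that of HOMER3 was 0.07 (adjusted p = 0.384). Interactions not called before were called after it for DLG3 (0.49, adjusted p = 3.32e-06) and HOMER2 (-0.49, adjusted p = 2.3e-05).

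With (2R,6R)-HNK 5 members showed an interaction, against 56.6% of all genes. The fall of DLG1 was 0.98 without and 0.34 with E2 (interaction 0.63, SE 0.056, adjusted p = 6.54e-14 by edgeR). HOMER1 fell by 0.69 without E2, and with E2 the value was 0.00 (SE 0.089), an interaction of 0.68 (SE 0.124, adjusted p = 5.02e-06). DLG4 was the member whose rise was larger with E2, at 0.87 (SE 0.063) against 0.41 (SE 0.068) without, an interaction of 0.46 (SE 0.093, adjusted p = 2.57e-05) that was 0.67 (SE 0.087) after the GC correction. For HOMER3 the uncorrected values were 0.39 without and -0.19 with E2 (interaction -0.59, SE 0.062). After the GC correction the interactions of DLG1 and HOMER3 were 0.16 (adjusted p = 0.00785) and -0.18 (adjusted p = 0.00593), and that of HOMER1 was 0.21 (adjusted p = 0.166). DLG3 (0.27, adjusted p = 0.00875) and HOMER2 (-0.29, adjusted p = 0.0106) were called only after the correction.

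With ketamine 6 members showed an interaction, against 37.5% of all genes. The count was 4 after the GC correction, without DLG1 and SHANK3, against 36.8% of all genes. With DESeq2 on the groups compared it was 3, without DLG1, SHANK3 and HOMER3, and the DESeq2 share of all genes is not given here. SHANK2 rose by 0.42 (SE 0.068) without E2 and fell by 0.36 (SE 0.07) with it, an interaction of -0.78 (SE 0.098, adjusted p = 6.27e-09 by edgeR). DLG3 rose by 0.21 without and fell by 0.19 with E2 (interaction -0.41, SE 0.091, adjusted p = 0.000304). DLG4 rose by 0.66 without and 0.28 with E2 (interaction -0.38, SE 0.093, adjusted p = 0.000989), and DLG1 fell by 0.60 and 0.45 (interaction 0.15, SE 0.056, adjusted p = 0.0273). The interaction of DLG1 with ketamine lost its call without vehicle replicate 1, E2 replicate 2, ketamine replicate 2 or E2+ketamine replicate 1, with adjusted p of 0.0892 to 0.147, and was 0.11 (adjusted p = 0.0946) after the GC correction. SHANK2 was the member whose interaction was negative and called with all 3 drugs, at -0.42 (SE 0.098) with (2R,6R)-HNK and -0.39 (SE 0.099) with (2S,6S)-HNK. After the GC correction these SHANK2 interactions were -0.62, -0.35 and -0.03 (adjusted p = 2.05e-07, 0.00165 and 0.833). The 3 interactions share the vehicle and the E2 libraries.

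**Figure D5:**
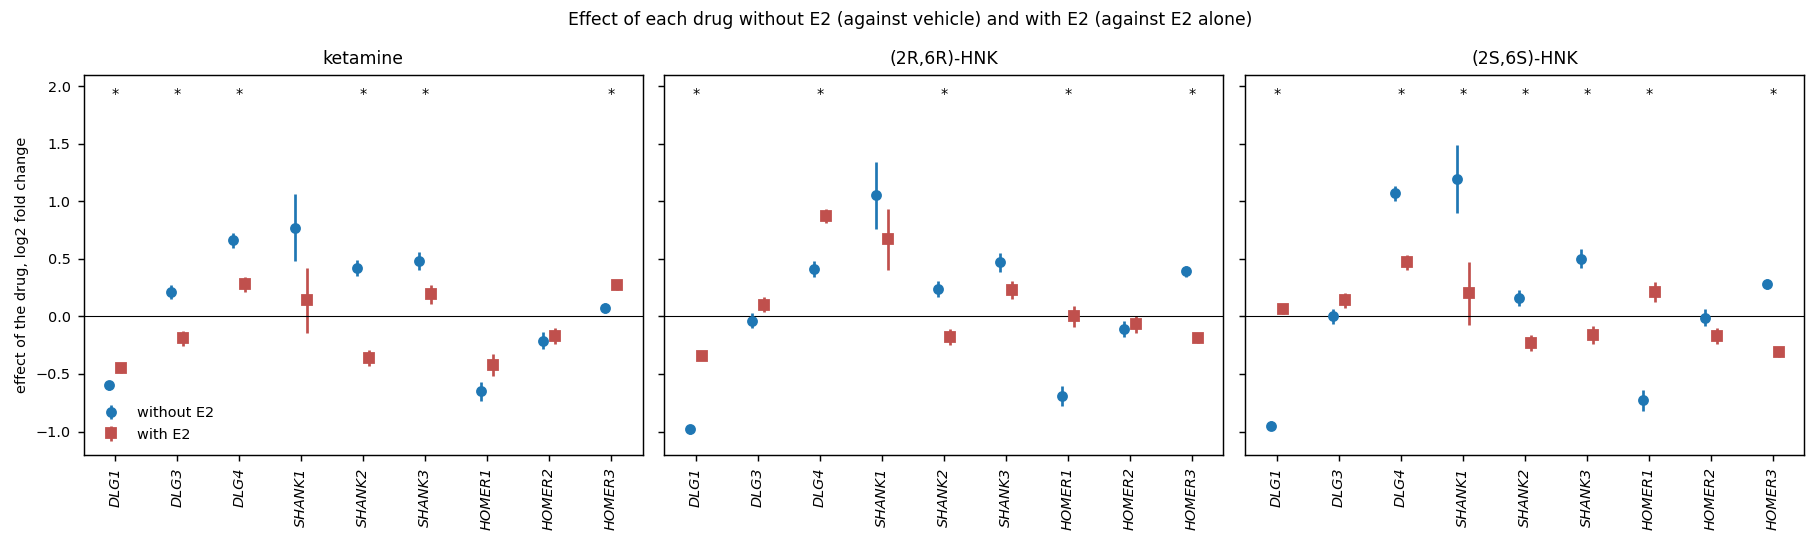
Effect of each drug on the members other than DLG2 (vertical axis, log2 fold change with standard error) without E2 (blue circles, against vehicle) and with E2 (red squares, against E2 alone), where a star marks an interaction with an adjusted p under 0.05. DLG1 and HOMER1 lie lower without E2 than with it under both HNKs, and SHANK2 lies higher without E2 under all 3 drugs; values are not corrected for GC content, and that correction ended 9 of the 18 starred interactions, those of DLG1 and SHANK3 with ketamine, of HOMER1 with (2R,6R)-HNK, and of DLG4, SHANK1, SHANK2, SHANK3, HOMER1 and HOMER3 with (2S,6S)-HNK.

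Known partners of the members were counted from 6 lists of 52 genes, of which 45 were tested. Over all lists, where each count is of genes tested, 16 rose and 14 fell with E2, 21 and 16 with ketamine, 18 and 18 with (2S,6S)-HNK, 18 and 17 with (2R,6R)-HNK, 19 and 20 with E2+ketamine, 20 and 19 with E2+(2R,6R)-HNK, and 17 and 19 with E2+(2S,6S)-HNK, and the median log2 fold change was -0.01 to 0.17, against -0.06 to 0.00 for all genes. As shares of the 45 tested partners, 35.6% to 46.7% rose and 31.1% to 44.4% fell, against 24% to 34.3% and 32.5% to 37.4% of all genes over the same comparisons. With GC content corrected, 11 rose and 10 fell with E2, 24.4% and 22.2% of those tested against 15.6% and 22.4% of all genes. In the other comparisons 8 to 12 rose and 14 to 21 fell, or 17.8% to 26.7% and 31.1% to 46.7% of those tested, against 17.7% to 25.9% and 25.1% to 34% of all genes. The corrected medians over all lists were -0.13 to 0.03, against -0.05 to -0.01 for all genes. DLGAP1 and DLGAP2, NLGN1, GRIN2A and GRIN2B, NOS1 and GRM5 were too low to test. GRM5 encodes a glutamate receptor that HOMER proteins bind, and GRIN2A and GRIN2B the NMDA receptor subunits that bind DLG4.

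Of the linkers of DLG to SHANK, DLGAP4 was abundant, at 275 ± 2.67 CPM (SD, n = 2) with vehicle, and DLGAP3 low, at 0.905 ± 0.31 CPM. DLGAP3 rose with (2S,6S)-HNK (0.71, SE 0.257), E2+ketamine (1.04, SE 0.25) and E2+(2R,6R)-HNK (0.65, SE 0.251), and none of these passed after the GC correction (-0.03 to 0.18). DLGAP4 rose in 5 of 7 comparisons, by 0.35 (SE 0.026) with E2+ketamine, and had -0.01 with ketamine and 0.01 with E2+(2S,6S)-HNK, but fell in 7 of 7 after the GC correction, by 0.20 to 0.37. Among 9 tested membrane partners of DLG, 3 to 6 rose and 2 to 3 fell in each comparison (33.3% to 66.7% and 22.2% to 33.3%, against 24% to 34.3% and 32.5% to 37.4% of all genes), and 0 to 4 rose and 2 to 4 fell after the GC correction. LRRC4B rose in 7 of 7 comparisons, by 0.64 to 1.67, and LRRC4 fell in 6 of 7, by 0.59 to 1.49, with 0.11 under E2. Both encode netrin-G ligands, adhesion proteins whose tails bind PSD-95. After the GC correction LRRC4 fell in the same 6 comparisons by 0.82 to 1.74 and LRRC4B rose in 3, with (2S,6S)-HNK and with E2 plus either HNK, by 0.80 to 0.99.

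Among the 14 tested signalling and adaptor partners of DLG, 1 to 5 rose and 7 to 9 fell in each comparison (7.14% to 35.7% and 50% to 64.3%, against 24% to 34.3% and 32.5% to 37.4% of all genes). The medians of this list were -0.50 to -0.16, and -0.14 to 0.09 after the GC correction. CNKSR2, a scaffold of Ras signalling, fell in 7 of 7 by 0.53 to 1.03, and LIN7B, an adaptor of cell junctions, rose in 6 of 7 by 0.41 to 0.98, with 0.21 under E2. After the GC correction 2 to 4 of this list rose and 3 to 6 fell (14.3% to 28.6% and 21.4% to 42.9%, against 15.6% to 25.9% and 22.4% to 34% of all genes), CNKSR2 did not pass in any comparison (-0.32 to -0.06) and LIN7B rose in 3. All 3 genes of the polarity complex, SCRIB, LLGL1 and LLGL2, rose in 7 of 7 comparisons, where 24% to 34.3% of all genes rose, while DLG1, which belongs to the same complex, fell. LLGL1 rose by 0.29 to 0.83 (SE 0.028) from 213 ± 1.96 CPM, and by 0.06 to 0.21 in 6 comparisons after the GC correction, with 0.02 in E2+(2S,6S)-HNK, but SCRIB fell in 7 of 7 after the GC correction, by 0.07 to 0.30, so that 0 to 2 of the 3 rose and 1 fell in each comparison. Of 9 partners of SHANK, 1 to 4 rose and 3 to 6 fell in each comparison (11.1% to 44.4% and 33.3% to 66.7%, against the same shares of all genes as above). With the correction 1 to 3 of them rose and 2 to 7 fell (11.1% to 33.3% and 22.2% to 77.8%), with 6 or 7 lower under ketamine, (2S,6S)-HNK and both HNKs with E2. SHARPIN, a SHANK-binding subunit of a ubiquitin ligase, rose in 7 of 7 by 0.43 to 0.97, and ABI1, an adaptor of the WAVE complex, fell in 7 of 7 by 0.27 to 0.64. After the correction SHARPIN rose in 4 comparisons by 0.11 to 0.22 and did not pass with E2 (-0.02), ketamine (0.06) or (2R,6R)-HNK (0.04), and ABI1 rose in 4 comparisons and fell in 1. Of 8 partners of HOMER, 4 rose (50%) and 1 to 4 fell (12.5% to 50%) in each comparison, and after the correction 2 to 3 rose (25.0% to 37.5%) and 1 to 3 fell (12.5% to 37.5%). ITPR3, an IP3 receptor, rose in 7 of 7 by 0.51 to 0.83 and by 0.12 to 0.44 after the GC correction. NFATC3, a calcium-regulated transcription factor, fell in 7 of 7 by 0.29 to 0.69 and by 0.23 to 0.41 after it.

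The genes most like a member across the 8 condition means, by Pearson's r of log2 CPM over 12748 genes, were KLF12 (r = 0.998), GPD1L (0.996) and ANKRD28 (0.996) for DLG1. They were FAM189A1 (0.995), ABCA2 (0.995) and ADAMTS7 (0.994) for DLG4, CENPT (0.996), TBCB (0.989) and MCOLN1 (0.988) for HOMER3, and AXIN2 (0.965), DAPK1 (0.904) and TRIM9 (0.896) for SHANK2. These are the highest values of many and come from 8 points that share libraries. The levels are not corrected for GC content. Over tested genes, exon GC content had a Spearman's rho of 0.733 with the mean log2 fold change. How much of the likeness follows a shared trend with GC content was not tested. No other gene followed SHANK2 as closely as the first genes followed DLG1, DLG4 and HOMER3.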

How the data were processed

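RNA-seq libraries of amplified cDNA were sequenced as paired reads, and the authors aligned them to hg19 with TopHat2 (2.0.14 in the submitters' processing notes, which differ from the paper's methods) and Bowtie2 (2.2.6) and counted pairs per gene with featureCounts (1.4.6). The deposited values are raw counts per gene and library. Strandedness is not given in the sources used here.

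Genes were filtered with filterByExpr, scaled by TMM and fitted with edgeR 4.0.16 (R 4.3.3) by quasi-likelihood, with a mean for each of 8 groups and 8 residual degrees of freedom. P-values were adjusted by Benjamini-Hochberg over the 16004 genes tested within each comparison, and a gene was called at an adjusted p under 0.05. The study's methods name DESeq2. Printed levels are TMM-scaled CPM. The correction was a loess fit (span 0.5) of each library on GC content and length from GENCODE models on GRCh37, matched by symbol for 21539 genes and by an older symbol for 1476, with a GC value for 95.9% of the genes tested. Alternatives were DESeq2 1.42.0 on all libraries or the groups compared, edgeR on those groups, no filter or 10 counts in every library, upper-quartile and RLE scaling, a replicate block, the GC and length correction with and without it, halved counts, and each library left out. The scripts were tested on simulated data.

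The members, partner lists, markers and tests were chosen with earlier results of these data known. Named were all members, the tested gene with the largest mean rise and fall of each partner list with a mean of 1 CPM or more, and the 3 genes most like DLG4 and the most abundant member of each family. 1 marker and 1 partner of the lists are not reported here. Other genes named in lists or overlaps were chosen by their place there.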

Additional observations from a re-analysis of the deposited data

Results flagged for a closer look

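The effect of a drug on a member differed with and without E2 by the interaction test of edgeR (effect with E2 minus effect without, log2 scale) in 18 cases. With ketamine these were DLG1 (0.15), DLG3 (-0.41), DLG4 (-0.38), SHANK2 (-0.78), SHANK3 (-0.30) and HOMER3 (0.20). With (2R,6R)-HNK they were DLG1 (0.63), DLG4 (0.46), SHANK2 (-0.42), HOMER1 (0.68) and HOMER3 (-0.59). With (2S,6S)-HNK they were DLG1 (1.01), DLG4 (-0.60), SHANK1 (-0.99), SHANK2 (-0.39), SHANK3 (-0.66), HOMER1 (0.94) and HOMER3 (-0.58). DLG1, DLG4, SHANK2 and HOMER3 were called with all 3 drugs, and DLG4 had opposite signs with the 2 HNKs. The interaction of SHANK1 rests on few counts and lost its call with 4 of 8 libraries left out, at -0.63 (adjusted p = 0.214) without vehicle replicate 1. The ketamine interactions of SHANK3 and DLG1 lost theirs with 5 and 4 of 8 left out, with adjusted p up to 0.142 and 0.147. That of HOMER3 with ketamine lost its call with 3 of 8 left out (vehicle replicate 1, ketamine replicate 1 and E2+ketamine replicate 2), and was 0.11 (adjusted p = 0.207) without vehicle replicate 1. After the GC correction 9 of the 18 were called in the same direction. With (2S,6S)-HNK this was DLG1 alone (0.46), while DLG4 (-0.10), SHANK1 (-0.24), SHANK2 (-0.03), SHANK3 (-0.14), HOMER1 (0.25) and HOMER3 (0.07) did not pass. With (2R,6R)-HNK they were DLG1 (0.16), DLG4 (0.67), SHANK2 (-0.35) and HOMER3 (-0.18), and HOMER1 (0.21) did not pass. With ketamine they were DLG3 (-0.28), DLG4 (-0.22), SHANK2 (-0.62) and HOMER3 (0.30), and DLG1 (0.11) and SHANK3 (-0.13) did not pass.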

How the results depend on the processing

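Groups of 2 libraries limit all comparisons, and the low counts of DLG2 and SHANK1 limit theirs. No called value of a member changed direction under any setting other than the GC and length correction, with or without the replicate block. Under both of these, HOMER3 was -0.10 with E2, -0.13 with (2R,6R)-HNK, -0.24 with (2S,6S)-HNK, -0.10 with E2+ketamine, -0.42 with E2+(2R,6R)-HNK, -0.14 for E2+(2R,6R)-HNK minus E2+(2S,6S)-HNK, and 0.07 for the (2S,6S)-HNK interaction. SHANK2 was -0.10 with (2S,6S)-HNK and with E2+(2R,6R)-HNK, DLG1 0.10 for E2+ketamine minus E2+(2R,6R)-HNK, HOMER1 0.05 for E2+(2R,6R)-HNK minus E2+(2S,6S)-HNK, and DLG3 with ketamine 0.00 in the fit with the block. The cause was not tested.

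The GC and length correction ended 34 of 98 calls of single members without a change of direction, changed the sign of 11, of which 7 were called in the new direction, and called 23 values that were not called before. With or without the block, it called 5 members with ketamine, 4 with (2R,6R)-HNK, 3 with E2+(2S,6S)-HNK and 3 for the (2S,6S)-HNK interaction. Without the block, the corrected shares of all genes in these comparisons were 48.5%, 45.7%, 56.4% and 40.8%. DESeq2 on the groups compared called 1 member between the HNKs, 3 between them with E2 and 3 for the ketamine interaction, and also 6 with ketamine and 5 with E2+ketamine against vehicle. The DESeq2 shares of all genes are not given here, so fewer calls of members cannot be told from fewer calls of all genes. DESeq2 on the groups compared ended 19 of 98 calls of single members, and DESeq2 on all libraries 12, with no change of direction. Against vehicle these were SHANK1 with E2, HOMER2 with ketamine and DLG3 with E2+ketamine in both, SHANK1 with ketamine, E2+ketamine and E2+(2S,6S)-HNK and SHANK2 with (2S,6S)-HNK on the groups compared, and SHANK2 with E2+(2S,6S)-HNK on all libraries. The rest were differences between drugs or interactions. The calls of DLG1, DLG4, SHANK3 and HOMER1 against vehicle stood under both. For the fits with a library left out, given next, the shares of all genes are likewise not given. Their counts of members cannot be told from fewer calls of all genes. With each library left out, which leaves 1 in an arm that is assumed to vary like the other groups, the counts were 5 to 8 with ketamine (5 without ketamine replicate 1), 4 to 6 with E2+(2S,6S)-HNK (4 without its replicate 1), 1 in each fit between the HNKs, and 3 to 4 between them with E2 (3 without either E2+(2R,6R)-HNK library).

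The replicate numbers did not pair the libraries: over 28 pairs of conditions the correlation of same-numbered deviations was -0.0258 to 0.0451. With the replicate number as a block, SHANK1 with E2 (adjusted p = 0.0524) and SHANK2 with (2S,6S)-HNK (adjusted p = 0.0527) lost their calls among 98 called values of single members, and the other calls stood. Upper-quartile and RLE scaling moved the log2 scaling factor of a library, centred over libraries, by at most 0.0708 and 0.03 against TMM. They ended 5 and 3 of the 98 calls of single members and called 6 and 3 values not called before. Fits without a filter and edgeR on the groups compared each ended 3, and the latter called 1 new value.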
